A study of Mus musculus with 6 samples.

Results

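Narrow H3K4me3 promoters without nearby H3K4me1 were examined in B cells of the germinal center (GC). H3K4me3 peaks of 3 libraries were merged into 64436 regions, of which 26816 held a peak of every library. Regions were kept if they were at most 2000 bp wide, covered an annotated transcription start site (TSS) of exactly 1 protein-coding gene, and had no H3K4me1 peak of any of 3 libraries within 5 kb. This left 1621 regions over 1611 genes, 10 of which had 2 such regions. They made up 19.3% of the 8416 H3K4me3 regions found in all 3 libraries over a single coding gene, and 53.6% of the 3023 that were at most 2000 bp wide. The members were thus selected on the presence and width of H3K4me3 peaks and the position of H3K4me1 peaks, and these features are given as a description. The other single-gene regions served as reference and comprised 1402 narrow regions with H3K4me1, 1498 wider regions without it and 3895 wider regions with it.

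The data are Mint-ChIP profiles, a multiplexed chromatin immunoprecipitation for small samples in which barcoded native chromatin is precipitated together and amplified. All 6 libraries came from the spleen of mice labelled WT, immunized with sheep red blood cells 8 days earlier, with 50000 sorted cells each and 3 libraries per mark, and no mutant or untreated group was part of the series. The labels call the cells centrocytes and the study's methods call them GC B cells, and the labels name an H3K27ac antibody in the protocol text although the titles and antibody fields name H3K4me1 and H3K4me3. Whether the replicates came from separate mice was not stated, so the spread between libraries may be technical.

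Trimethylation of lysine 4 on histone H3 marks the nucleosomes around the start sites of transcribed genes, and its width varies from narrow peaks to broad domains at genes that define a cell type. Monomethylation of the same residue marks enhancers and the flanks of promoters and is laid down in GC B cells by KMT2D and related enzymes. A promoter with a narrow H3K4me3 peak and no H3K4me1 peak beside it is therefore marked at its start and has no enhancer-type mark around it that passed peak calling.

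The H3K4me3 libraries held 46704, 41933 and 42858 peaks and the H3K4me1 libraries 24136, 13922 and 11922, the latter with median widths of 253 to 270 bp. Read depth is unknown because peak lists carry no read counts, so a missing H3K4me1 peak means that none passed the authors' threshold, not that the mark was absent. All 10 B cell and GC marker genes checked, among them Pax5, Bcl6 and S1pr2, had an H3K4me3 peak over a TSS in all 3 libraries. Of 6 T cell markers only Lck did, and none of 5 myeloid or 3 erythroid markers did. The myeloid receptor gene Cd14 was itself in the set, with a TSS under the peak in library 2 alone and the peaks of libraries 1 and 3 ending 271 and 418 bp away. In the longer list of 46 B cell and GC genes read further on, 3 genes had no H3K4me3 region over a TSS in all 3 libraries.

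The promoters below are shown because they are the 3 with the strongest H3K4me3 (Gm49359, Egf and Rpp40), because they hold a motif described further on (Zfp780b, Ccp110, Mad1l1, St7 and Eif3f), or because they are on the X chromosome (Eif2s3x). Each runs 5′ to 3′ on the strand of the gene from 150 bases before the TSS through the first 30 transcribed bases, from the RefSeq copy of the GRCm38 genome, with capitals only for the motif or motifs named after the sequences. Matches to others of the 13 motifs searched stay in lower case, namely the NF-Y, E-box and YY1 motifs in Eif3f, the ETS motif in Ccp110 and the Sp/KLF motif in Eif2s3x.
Gm49359, chr13:62466777-62466956, minus strand: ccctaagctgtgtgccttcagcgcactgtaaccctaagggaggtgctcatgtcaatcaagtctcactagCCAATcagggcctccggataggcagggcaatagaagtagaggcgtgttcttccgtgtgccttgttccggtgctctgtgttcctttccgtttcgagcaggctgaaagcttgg
Egf, chr3:129725058-129725237, minus strand: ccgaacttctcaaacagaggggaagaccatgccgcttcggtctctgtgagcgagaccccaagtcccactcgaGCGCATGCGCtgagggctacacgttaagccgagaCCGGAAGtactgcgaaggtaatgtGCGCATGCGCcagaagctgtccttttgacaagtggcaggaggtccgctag
Rpp40, chr13:35906315-35906494, minus strand: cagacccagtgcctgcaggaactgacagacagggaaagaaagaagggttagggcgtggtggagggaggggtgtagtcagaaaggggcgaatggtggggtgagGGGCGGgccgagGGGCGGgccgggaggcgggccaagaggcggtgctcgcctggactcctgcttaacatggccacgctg
Zfp780b, chr7:27979118-27979297, minus strand: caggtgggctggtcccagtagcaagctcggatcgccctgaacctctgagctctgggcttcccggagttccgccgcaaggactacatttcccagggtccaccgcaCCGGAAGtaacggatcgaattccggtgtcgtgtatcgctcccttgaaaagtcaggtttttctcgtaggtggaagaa
Ccp110, chr7:118712402-118712581, plus strand: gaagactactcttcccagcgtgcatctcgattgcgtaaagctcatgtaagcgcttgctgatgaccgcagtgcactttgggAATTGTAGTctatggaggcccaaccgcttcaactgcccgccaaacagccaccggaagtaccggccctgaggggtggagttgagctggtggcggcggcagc
Mad1l1, chr5:140321523-140321702, minus strand: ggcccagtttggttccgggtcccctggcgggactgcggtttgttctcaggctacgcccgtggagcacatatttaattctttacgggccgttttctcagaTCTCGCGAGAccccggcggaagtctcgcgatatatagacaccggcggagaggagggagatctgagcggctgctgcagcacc
St7, chr6:17749066-17749245, plus strand: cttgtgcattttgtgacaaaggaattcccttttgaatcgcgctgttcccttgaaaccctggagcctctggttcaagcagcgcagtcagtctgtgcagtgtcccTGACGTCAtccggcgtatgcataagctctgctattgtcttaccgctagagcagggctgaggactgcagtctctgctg
Eif3f, chr7:108934267-108934446, plus strand: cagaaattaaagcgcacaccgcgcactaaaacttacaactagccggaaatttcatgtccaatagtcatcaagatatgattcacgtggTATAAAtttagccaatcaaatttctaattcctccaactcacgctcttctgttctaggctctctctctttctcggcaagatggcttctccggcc
Eif2s3x, chrX:94212680-94212859, minus strand: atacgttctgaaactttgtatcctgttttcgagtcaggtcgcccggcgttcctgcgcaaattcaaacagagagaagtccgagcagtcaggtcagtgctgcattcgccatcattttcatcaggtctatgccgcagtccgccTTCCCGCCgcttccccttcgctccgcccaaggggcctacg
In these stretches the capitals mark the NF-Y motif CCAAT in Gm49359 and the Sp/KLF motif GGGCGG in Rpp40, where it occurs in tandem. In Egf they mark the ETS motif CCGGAAG and, on both sides of it, overlapping copies of the NRF1 motif GCATGCGC on the sense and antisense strands, which form a palindrome at each place. They mark the ETS motif in Zfp780b, the ZNF143 motif ACTACAATT on the antisense strand in Ccp110 and the ZBTB33 motif TCTCGCGAG on both strands in Mad1l1. Also marked are the CREB/ATF motif TGACGTCA in St7, the TATA motif TATAAA in Eif3f and the E2F motif TTCCCGCC in Eif2s3x. The match in Eif3f begins at −63 from the TSS. A match is a description of the letters and not evidence of binding.

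H3K4me3 strength was taken as the fold enrichment of the peak over the TSS, a ratio of library signal to background that the authors' peak caller averages over a broad peak. The median was 5.76, 5.26 and 5.29 over the 1480, 1295 and 1382 members with a TSS peak in libraries 1, 2 and 3 (mean 5.44 ± 0.276, SD, n = 3). It was 6.23 ± 0.407 in narrow regions with H3K4me1, 5.83 ± 0.282 in wide regions without it and 6.50 ± 0.383 in wide regions with it. The set was thus the lowest of the 4 classes, although its lower and upper quartiles, 4.44 ± 0.141 and 6.76 ± 0.434, spanned the medians of the other 3. Regions without a TSS peak in a library were left out of its median. The mean share with a TSS peak was 85.5% in the set and 89.4% to 91.2% in the other classes. The TSS lay under a peak of all 3 libraries in 1131 regions (69.8%). In 274 regions it did so in 2 libraries and in 216 in 1 library, since the merged region can reach farther than the peak of each library. Among the 1131, fold enrichments of pairs of libraries had Spearman correlations of 0.646 to 0.708 and peak widths of 0.462 to 0.480, across regions that share the libraries and their depth.

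Ranked by the lowest fold enrichment over the 3 libraries, 8 members reached at least 10 in every library. The strongest was Gm49359, a predicted protein-coding gene on chromosome 13, at 19.4, 14.2 and 15.3, with an 893-bp region at chr13:62466304-62467196 (GRCm38). Its reads may be shared with near-identical zinc finger genes, and the handling of such reads is not given in the sources used here. Egf, which encodes epidermal growth factor, followed at 13.4, 12.9 and 12.7 in a region of only 544 bp (chr3:129724854-129725397), and its 3 values lay closer together than those of any other of these 8 genes. Rpp40, a protein subunit of ribonuclease P, had 11.6, 11.9 and 12.4.

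The other 5 were Fis1, a mitochondrial fission factor (17.5, 10.9 and 11.4), Mrnip, which interacts with the MRN DNA repair complex (12.2, 10.8 and 12.7), Exo5, a DNA exonuclease (13.5, 11.8 and 10.6), Fntb, the beta subunit of protein farnesyltransferase (11.5, 10.6 and 10.6), and Cd200, a surface glycoprotein of B cells and other cells (15.6, 10.3 and 11.2). Library 1 gave the highest value for Fis1 and Cd200 and exceeded the other libraries by far more than those differed from each other. The weakest members with a TSS peak in all 3 libraries were Hmgb3, a chromatin protein on the X chromosome (5.59, 3.89 and 2.99), Osbp2, an oxysterol-binding protein (4.59, 3.72 and 2.96), and Dapk2, a calmodulin-dependent kinase (2.95, 3.54 and 4.04). The lowest value over the libraries ranged over the 1131 from 2.95 to 14.2, with a median of 4.85.

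The merged regions had a median width of 1529 bp and the peaks of single libraries 1316, 1172 and 1205 bp (mean 1231 ± 75.4 bp, SD, n = 3). The narrowest member was Naip2, a sensor of bacterial proteins, with a 309-bp region and fold enrichments of 3.88, 6.08 and 3.30. Naip2 belongs to a cluster of near-identical genes, so reads could be split among copies. Sema3f, a secreted guidance factor, had 346 bp and Scn1a, a neuronal sodium channel, 421 bp. The region of Scn1a was also far from any H3K4me1 peak, at 1067804 bp. Zfp953, Npm3 and Grk5 lay just inside the width limit at 2000 bp, whereas Dpy19l4 and Spg11 at 2001 bp and Mycl at 2002 bp lay just outside it. At the distance limit, the nearest H3K4me1 peaks of Plod1, Hhat and Trappc9 were 5009, 5017 and 5023 bp away, and the otherwise eligible Plpp5, Sumf1 and 2310033P09Rik were excluded at 4995, 4990 and 4975 bp.

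Stronger peaks went with wider regions within the set. From the 406 narrowest regions (309 to 1267 bp) to the 402 widest (1771 to 2000 bp) the median fold enrichment went from 4.99 ± 0.277 to 5.69 ± 0.261 (SD over 3 libraries), and the share of regions with the TSS under a peak in all 3 libraries from 60.6% to 76.6%. Width took part in the rule, so this order is given without a test.

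The peaks were placed asymmetrically on the start site. Relative to the covered TSS nearest the middle of the region, a median of 443 ± 26.4 bp lay upstream and 742 ± 32.3 bp downstream (SD, n = 3), and the median difference per region was 268 ± 3.12 bp. The downstream part was longer in 72.4 ± 0.814% of the peaks. In the 910 regions over only 1 TSS the difference was 325.5 ± 3.77 bp. The placement was not particular to the set, since the downstream part was longer in 70.9% to 74.7% of the peaks in the other 3 classes. Coverage by peaks fell off quickly with distance, from 84.9 ± 5.80% of the regions at the TSS to 4.50 ± 0.758% at 1000 bp upstream and 23.5 ± 3.24% at 1000 bp downstream. At 1000 bp downstream it was 31.6 ± 2.98% in narrow regions with H3K4me1 and 79.9 ± 4.38% in wide regions with it.

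**Figure D1:**
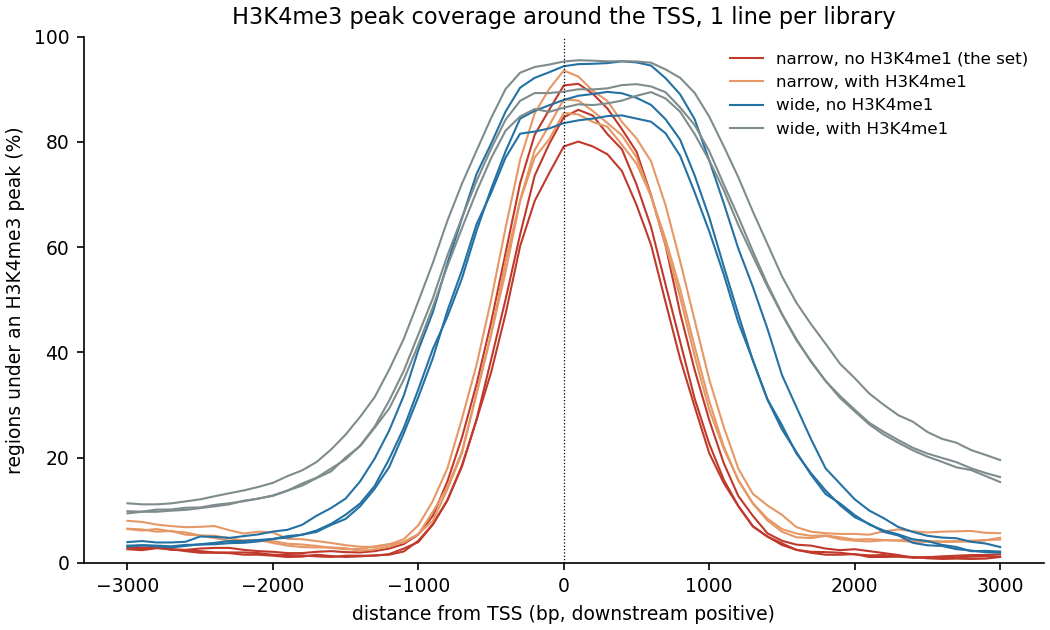
Share of regions (%) lying under an H3K4me3 peak at each distance from the TSS (bp, downstream positive), with 1 line per library for the 4 classes of single-gene regions. Lines of the set (red) are highest 100 bp downstream of the TSS and reach 23.5% at 1000 bp downstream, against 79.9% for wide regions with H3K4me1, a difference that the width limit fixes in part.

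The nearest H3K4me1 peak of any library was at a median of 26.5 kb. It lay 5 to 10 kb away in 268 regions (16.5%), 10 to 50 kb away in 913 (56.3%), 50 to 100 kb away in 218 and beyond 100 kb in 222. Most narrow promoters without H3K4me1 beside them therefore had a peak of that mark from any library within 50 kb. In libraries 1, 2 and 3 taken singly, 60.6%, 44.7% and 38.9% of the set had a peak at 5 to 50 kb. In narrow regions with H3K4me1 these shares were 70.3%, 57.6% and 50.9%.

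Whether the lack of H3K4me1 held in a library that played no part in the choice was asked by forming the classes with 2 H3K4me1 libraries and reading the remaining library. The held-out library had a peak within 5 kb of 24.7%, 10.7% and 9.99% of the regions of the set when libraries 1, 2 and 3 were held out in turn. The corresponding shares were 49.4%, 28.4% and 27.7% in narrow regions with H3K4me1. The share was lower in the set in 3 of 3 libraries, with a mean log2 ratio of −1.29 ± 0.26 (SD, n = 3), and an exact sign-flip permutation test gave a two-sided p = 0.25, the smallest that 3 libraries allow. The 3 rotations reuse the same libraries and are not independent. Library 1, which had the most peaks, gave the highest share in every class, and the highest share of the set (24.7%) was near the lowest of narrow regions with H3K4me1 (27.7%) without reaching it.

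At 5 to 50 kb the held-out share was 61.8%, 46.1% and 39.6% in the set and 73.2%, 57.6% and 51.7% in narrow regions with H3K4me1. The mean log2 ratio was −0.32 ± 0.07, again lower in 3 of 3 libraries (exact sign-flip p = 0.25). Here the shares of the classes overlapped between libraries. Compared with wide regions without H3K4me1, the set had the lower share within 5 kb in 3 of 3 libraries too (mean 15.1% against 24.99%, log2 ratio −0.75 ± 0.10, exact sign-flip p = 0.25). The highest shares were those of wide regions with H3K4me1, at 55.9 ± 14.6% within 5 kb.

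**Figure D2:**
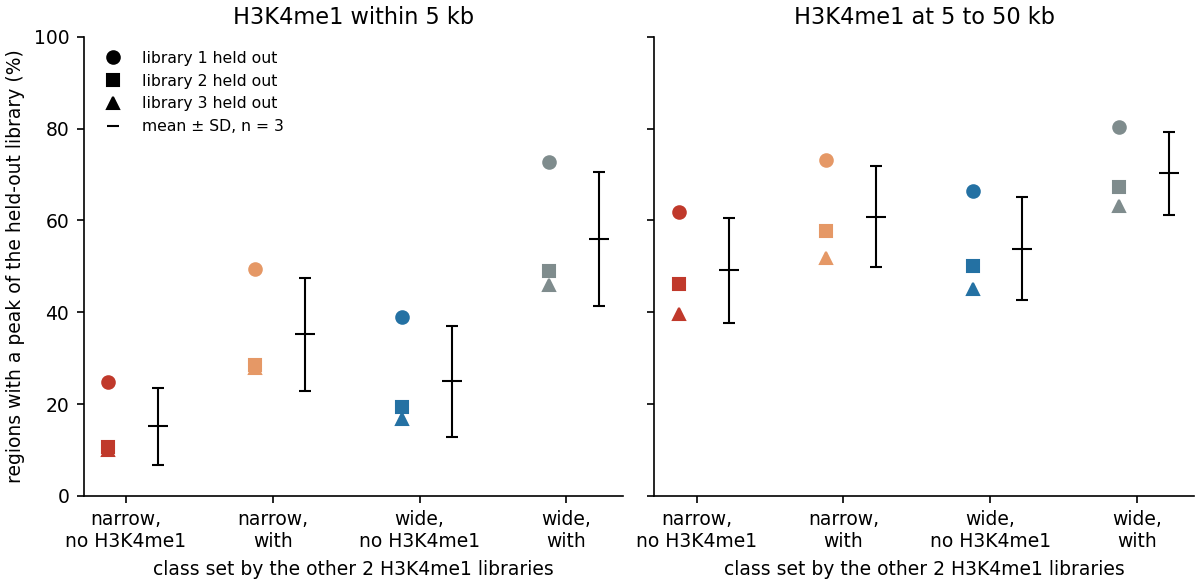
Share of regions (%) with a peak of the held-out H3K4me1 library within 5 kb (left) or at 5 to 50 kb (right), for classes set by the other 2 libraries; symbols are the 3 libraries and bars the mean ± SD. Within 5 kb the set has 24.7%, 10.7% and 9.99%, below narrow regions with H3K4me1 for each library.

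Peak width was read in the same way, with the class set by 2 H3K4me3 libraries and the width taken from the remaining one. The held-out median was 1458, 1240.5 and 1286 bp in the set and 1615, 1427 and 1424 bp in narrow regions with H3K4me1 (mean log2 ratio −0.17 ± 0.03, lower in 3 of 3 libraries, exact sign-flip p = 0.25). The held-out fold enrichment was likewise lower in the set, at 5.52 ± 0.313 against 6.26 ± 0.427 (log2 ratio −0.18 ± 0.02, exact sign-flip p = 0.25). A held-out peak covered the TSS in 81.6 ± 7.65% of the regions of the set and 88.8 ± 4.61% of narrow regions with H3K4me1. All 3 measures were lower in the set in every library.

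The sequence around the start sites was not part of the rule. In the 1 kb centred on the TSS, the median GC content of the set was 56.8% and the median ratio of observed to expected CpG 0.664. Counting a window as CpG island-like at a GC content of at least 50% and a ratio of at least 0.6, 985 regions qualified (60.8%, Wilson 95% interval 58.4 to 63.1%). This was close to the 60.3% of narrow regions with H3K4me1 (57.7 to 62.8%) and below the 81.7% of wide regions without it (79.7 to 83.6%) and the 73.8% of wide regions with it (72.4 to 75.1%). The share was 46.0% over all 21851 coding genes and 19.96% over the 10813 with no H3K4me3 peak over a TSS. Coding genes were taken at their most upstream coding TSS, and regions at the covered TSS nearest their middle. The intervals of the narrow classes overlapped and lay below those of both wide classes, and they cover counting error only.

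Within the set, 148 regions (9.13%) had a ratio below 0.4. Their median fold enrichment was 4.82 ± 0.222 and their median peak width 1014.5 ± 96.1 bp, against 5.53 ± 0.297 and 1320 ± 83.0 bp in the island-like regions (SD over 3 libraries). Naip2 had a ratio of 0.11, and the strong promoter of Fis1 also fell below 0.4, at 0.391. The island-like share went from 44.3% in the 406 narrowest regions to 74.4% in the 402 widest.

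**Figure D3:**
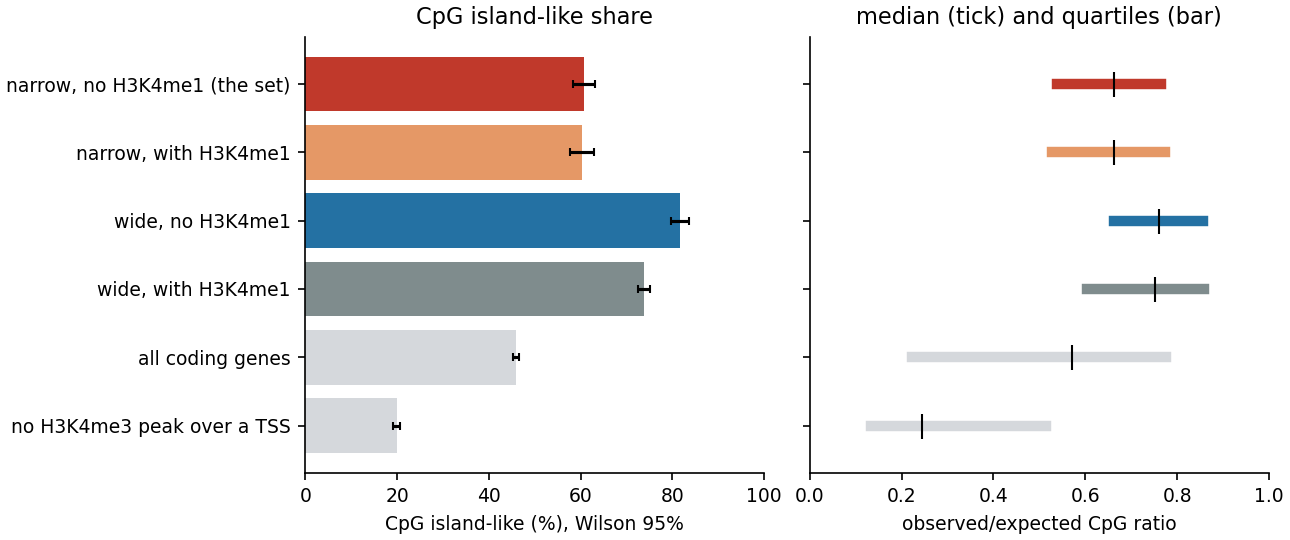
Left, share of CpG island-like windows (%, bars from 0, with Wilson 95% intervals); right, ratio of observed to expected CpG (tick, median; bar, quartiles), both in 1 kb around the TSS for the 4 classes and for coding genes. The set, at 60.8%, sits beside narrow regions with H3K4me1 (60.3%) and below both wide classes.

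In total, 13 short motifs were searched on both strands from 250 bases before to 50 bases after the TSS. As for the CpG share, this was the most upstream coding TSS of each gene for all coding promoters. For the regions it was the covered TSS nearest their middle. GGGCGG, the Sp/KLF motif, was present in 62.8% of the set and 44.9% of all coding promoters, and CCGGAAG, the ETS motif, in 18.3% and 11.1%. GCATGCGC (NRF1) was found in 6.05% and 3.798%, CACGTG (E-box) in 10.5% and 7.78%, AAGATGGC (YY1) in 4.26% and 2.96%, and TGACGTCA (CREB/ATF) in 3.70% and 2.50%. TATAAA was less frequent in the set, at 7.22% against 12.5%. The first base of its matches was at a median of −154 from the TSS in the set and −97 in all coding promoters. CCAAT was about as frequent, at 37.0% against 38.8%.

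Motifs tied to lymphoid factors had similar or lower shares in the set. GAGGAAGT, a PU.1 motif, was present in 2.53% of the set against 3.22% of all coding promoters, and ATGCAAAT, the octamer bound by OCT2, in 1.60% against 1.57%. The remaining motifs were TTCCCGCC (E2F, 3.70% against 3.04%), TCTCGCGAG (ZBTB33, 0.925% against 0.911%) and ACTACAATT (ZNF143, 0.740% against 0.526%). None of the 13 was found in 11.2% of the set and 20.5% of all coding promoters. The shares in the other 3 H3K4me3 classes stood on the same side of all coding promoters as the set for the Sp/KLF, ETS, NRF1, E-box, YY1, CREB/ATF and TATA motifs, for instance 17.3% to 20.2% for CCGGAAG and 56.4% to 71.2% for GGGCGG. Among the 1131 members with a TSS peak in all 3 libraries, the median lowest fold enrichment was 5.34 with CCGGAAG and 4.74 without it. With GGGCGG it was 4.74 and without it 5.16.

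The genes of the set were read against 27 gene lists. Of all coding genes 7.37% were in the set, and of the 8149 genes with a single-gene region in all 3 libraries 19.8%. Genes whose H3K4me3 region covers a neighbouring gene as well could not enter the set.

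The list with the largest share was transport within cilia, made up of the Ift genes, which encode the intraflagellar transport particles, and the Bbs genes, whose products form and assemble the BBSome cargo adaptor. Of its genes, 12 of 22 (54.5%) were in the set, and of the 17 with a single-gene region 12 (70.6%). Bbs5, a BBSome subunit, was the strongest, with fold enrichments of 8.91, 9.02 and 8.18 in a 1309-bp region 25668 bp from the nearest H3K4me1 peak. Ift52, a subunit of the IFT-B particle, had 9.30, 6.97 and 10.01. Ift88, another IFT-B subunit, had 8.49, 6.56 and 7.28 and Bbs9 7.91, 8.71 and 6.44. Ift22, Bbs4, Ift43, Ift74, Bbs7 and Ift81 had lowest values of 5.80, 5.42, 5.17, 4.84, 3.81 and 3.47.

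The TSS of Bbs2 lay under a peak in libraries 1 and 3 and that of Bbs1 in library 1 alone, so 10 of the 12 rested on a TSS peak in every library. The 12 regions were 936 to 1933 bp wide. Of the other genes of the list, Ift46 and Ift57 were narrow with H3K4me1, Bbs10 was wide without it, and Ift172 and Ift27 were wide with it. The regions of Bbs12, Ift122, Ift140, Ift20 and Ift80 covered more than 1 gene. All 22 genes therefore had a TSS in an H3K4me3 region that held a peak of every library, although not every library's peak reached the TSS. Cep genes, which encode centrosomal proteins, were in the set for 3 of 36 (8.33%), near the 7.37% of all coding genes, with Cep97 at 12.5, 10.8 and 9.73 and Cep295 at 7.04, 5.80 and 5.62.

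The Zfp genes, most of which encode zinc finger transcription factors, were the longest list and gave the largest number. Of them, 80 of 394 were in the set (20.3%) and 30.7% of those with a single-gene region. Zfp genes were common in the other classes too, with 63 narrow with H3K4me1, 38 wide without it and 82 wide with it. Zfp780b was the strongest (11.5, 9.83 and 9.76) and Zfp773 followed (8.68, 8.73 and 8.35). Many of these genes stand in clusters of similar copies, and 105 of the 394 had no H3K4me3 region over a TSS in all 3 libraries.

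Among lists of the gene expression machinery, 4 of 15 Integrator genes were in the set (26.7%), led by Ints14 (lowest fold enrichment 5.60) and Ints10 (5.40), as were 5 of 28 RNA polymerase genes (17.9%, Polr2k 7.13 and Polr3gl 6.26) and 5 of 30 Mediator genes (16.7%). Med17, a core Mediator subunit, had 11.6, 8.56 and 10.3, and Med23 had 9.70, 4.88 and 8.40. The TBP-associated factors had 3 of 23 (Taf2 6.12 and Taf1b 5.16), the DEAD and DEAH box helicases 7 of 53 (Ddx19a 6.47 and Dhx8 5.45), the spliceosome proteins 3 of 47 (Snrpb2 7.84 and Lsm10 3.58), the nucleoporins 2 of 21 and the RNA exosome 1 of 10.

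In translation, the mitochondrial and cytosolic ribosomes had unlike shares. Of 78 genes each, 14 mitochondrial (17.9%) and 5 cytosolic ribosomal protein genes (6.41%) were in the set. Of those with a single-gene region these were 31.1% of 45 and 8.47% of 59, and 31 of the cytosolic genes were instead wide with H3K4me1, against 12 of the mitochondrial genes. Narrow with H3K4me1 were 15 mitochondrial and 5 cytosolic genes, so the unlike shares were not particular to the set. Mrpl48 had 12.4, 7.18 and 6.77 and Mrps26 6.53, 6.57 and 6.81 among the mitochondrial genes, and Rpl7 had 8.39, 7.32 and 6.75 and Rplp2 7.23, 5.86 and 6.64 among the cytosolic ones. Library 1 again stood above the others for Mrpl48. The difference between the lists was not tested. Aminoacyl-tRNA synthetases had 3 of 38, led by the mitochondrial enzymes Pars2 (10.7, 8.71 and 10.4) and Iars2 (5.70, 5.97 and 7.25), and initiation factors 4 of 55, led by Eif2s3x (11.3, 9.02 and 10.5) and Eif3f (9.78, 8.45 and 6.99).

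Lists of membrane traffic and organelles were spread around these values. Membrane tethering and sorting genes had 12 of 70 (17.1%), with Cog6 of the Golgi COG complex at 9.27, 11.1 and 7.13 and Exoc3 of the exocyst at 7.79, 6.67 and 6.92. Genes of GPI anchor synthesis had 4 of 21 (Pigk 6.29 and Pigs 5.44 as lowest values), core autophagy genes 4 of 21 (Atg4d 4.59 and Atg10 4.36), and N-glycan assembly genes 2 of 12. Respiratory complex I had 5 of 46 (Ndufb6 6.77 and Ndufv3 6.46), the proteasome 5 of 50 (Psmd6 5.76 and Psme1 5.05), and replication origin and clamp loader genes 3 of 21 (Orc5 6.24 and Rfc5 6.10). The Fanconi anaemia pathway had 1 of 11 and the peroxins, which import peroxisomal proteins, 0 of 17. Potassium channel genes had 3 of 94 (Kcnj2 4.50 and Kcnip2 4.04) and collagen chains 0 of 45, and 74 and 41 of these genes had no H3K4me3 region over a TSS in all 3 libraries.

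Of 46 genes of B cell identity and the GC reaction, 1 was in the set (2.17%), and 38 of the 39 with a single-gene region were wide with H3K4me1, in regions of 2595 to 22443 bp with a median of 7826 bp. Regions of Pax5, Irf8 and Fas were 18240, 16051 and 22443 bp wide. The exception was Crebbp, which encodes the histone acetyltransferase CBP and is one of the genes inactivated in other experiments of the study. Its 1662-bp region (chr16:4213970-4215631) had an H3K4me1 peak no nearer than 42157 bp, a GC content of 75.4% and a CpG ratio of 1.04. The peaks in it had fold enrichments of 4.48, 4.07 and 4.23, but they reached the annotated TSS in library 1 alone and ended 447 and 420 bp short of it in libraries 2 and 3. The other inactivated gene, Kmt2d, lay in a wide region of 5586 bp with H3K4me1. Of the 46 genes, Bach2, Ep300 and Spi1 had no H3K4me3 region over a TSS in all 3 libraries. The regions of 4 others covered more than 1 gene.

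**Figure D4:**
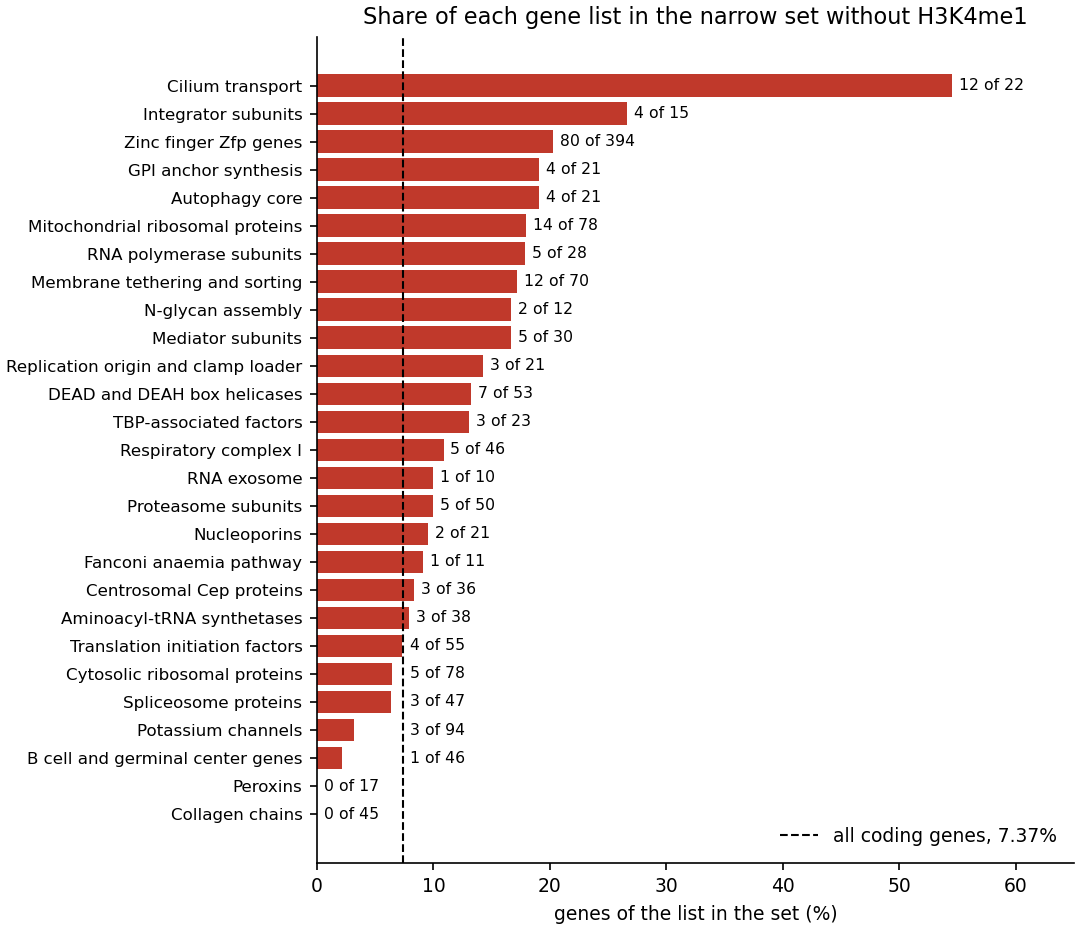
Share (%) of the genes of each of 27 lists that are in the set, with the number of genes beside each bar and a dashed line at the 7.37% of all coding genes. Cilium transport has the longest bar (12 of 22) and B cell and GC genes have 1 of 46.

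The X chromosome held 98 members, which were 40.2% of its 244 single-gene regions. On single autosomes the share ranged from 11.7% (chromosome 19) to 24.0% (chromosome 13), and it was 18.6% over all of them. X held 6.05% of the set and 4.94% of wide regions without H3K4me1. Of narrow and wide regions with H3K4me1 it held 1.85% and 1.18%. Both conditions of the rule moved with the chromosome. On X, 50.8% of single-gene regions were at most 2000 bp wide, against 35.5% on autosomes, and 79.0% of the narrow ones had no H3K4me1 peak within 5 kb, against 52.5%. H3K4me1 within 5 kb of single-gene regions was found in 20.1%, 9.84% and 8.61% on X in libraries 1, 2 and 3, and in 49.0%, 31.9% and 30.02% on autosomes, so each library had less on X.

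Peaks of both marks were sparser on X as a whole. Per megabase, X had 0.119 ± 0.00911 times the H3K4me1 peaks and 0.379 ± 0.00406 times the H3K4me3 peaks of the autosomes (SD, n = 3). The part of this lower peak density in the share of members on X was not tested. The members on X were also weaker, with a median fold enrichment of 5.05, 4.44 and 4.46 against 5.81, 5.33 and 5.39 on autosomes, and 45.9% of them were CpG island-like against 61.7%. The strongest on X was Eif2s3x, a subunit of translation initiation factor eIF2, followed by Gab3, a signalling adaptor (7.78, 7.53 and 6.83), and Tsr2, a ribosome assembly factor (8.33, 8.31 and 6.16). Counting only members with the TSS under a peak in all 3 libraries was an alternative chosen after seeing the data. Out of all single-gene regions, such members were 25% on X and 13.1% on autosomes. The restriction was applied to members alone, so both shares could only fall.

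**Figure D5:**
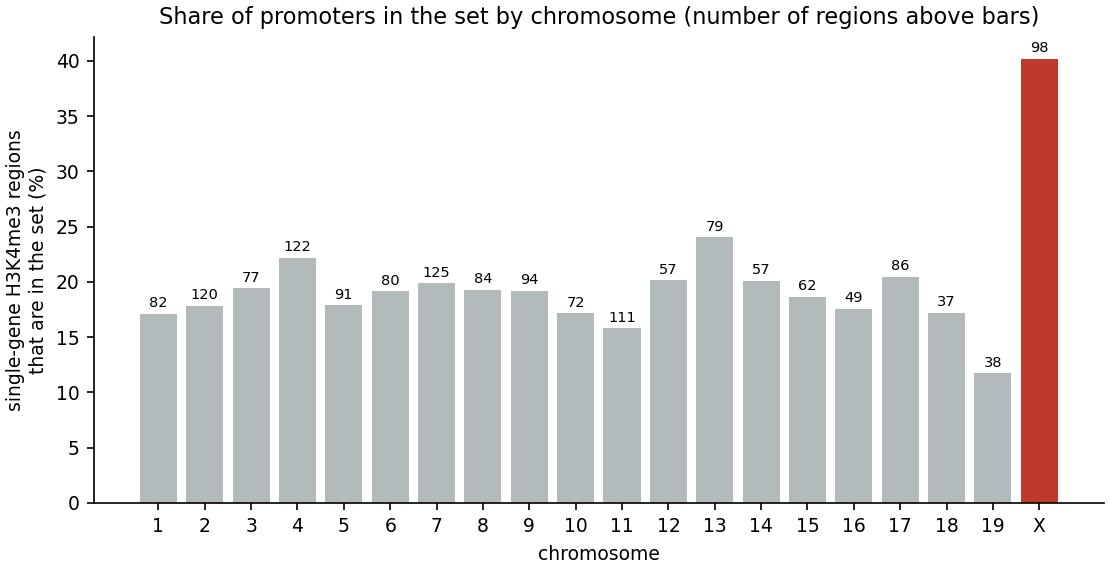
Share (%) of the single-gene H3K4me3 regions of each chromosome that are in the set (bars from 0, number of members above each). X, in red, stands at 40.2% against 11.7% to 24.0% on the autosomes.

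A TSS of a noncoding transcript lay within 10.4% of the regions, against 11.8% of narrow regions with H3K4me1 and 18.02% and 18.9% of the wide classes, which offer more room for one. A long noncoding RNA started in the opposite direction within 7.16% of the regions and 9.34% of narrow regions with H3K4me1. The nearest TSS of another coding gene was at a median of 25.1 kb in the set and 20.5 kb in narrow regions with H3K4me1. It was at 29.4 kb in wide regions without H3K4me1 and 28.8 kb in wide regions with it. Of the 406 members whose gene had a further annotated TSS outside the region, that TSS was marked in 82 (20.2%). The share was 25.6% of 285 wide regions without H3K4me1. With H3K4me1 it was 31.7% of 366 narrow regions and 38.1% of 867 wide regions. The genes of the set had a median length of 20.5 kb and a median of 8 exons.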

How the data were processed

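Peak lists of 6 libraries were analysed, 3 of H3K4me1 in the narrow and 3 of H3K4me3 in the broad layout. The authors called peaks per library. The deposited columns used were the fold enrichment ratio and the −log10 q-value; the deposited −log10 p-value and the score were not used in any result. The submitters' processing notes name BWA, Picard, HOMER, Genrich and mm10 without roles. Column layout and peak names follow MACS2; its version, settings and control are not given in the sources used here. Broad calling joins nearby enrichment, so widths depend on its settings. Of 181486 peaks, 11 mitochondrial ones were dropped.

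Peaks that overlapped or touched were merged. TSSs were those of coding transcripts of protein-coding genes in the GENCODE M21 basic annotation (41438 TSSs, 21851 genes), whose build, GRCm38, is that of mm10. No peak ran past a chromosome end, and at least 20.2% of the H3K4me3 peaks of each library covered a TSS, against at most 2.59% after a shift of 100 kb. Promoter sequences came from the RefSeq GRCm38.p6 genome. Held-out values were compared over 3 libraries by the exact two-sided sign-flip permutation test. The members, gene lists and motifs were chosen with earlier results of these data known. Named genes were the 8 strongest and 3 weakest members by the lowest fold enrichment over the libraries, the 3 narrowest, the 3 on each side of either limit, the 2 strongest of each list with at least 3 members and every member of the B cell list; the X-linked genes, Cd14 and other genes of the cilium and B cell lists were named after their values were seen. Functions were tested on simulated peaks. Python 3.11.15 with pandas 2.3.3, numpy 2.4.6, scipy 1.17.1 and matplotlib 3.10.9 was used. Read depth is unknown, and its effect on precision could not be set beyond the spread between libraries.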

Additional observations from a re-analysis of the deposited data

How the results depend on the processing

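Of 96 comparisons with an alternative setting, 77 stayed within the limits for an unmoved value, 19 moved and 0 changed direction. The limits were a fold range for the number of members and the Wilson interval for the CpG island-like share. For fold enrichment and extent the limit was the SD over libraries. A held-out log2 ratio could only keep or change its direction. The 10 alternatives of each held-out measure therefore count as unmoved whatever their size. With a width limit of 1500 bp the set had 750 regions, a CpG island-like share of 50.3%, a fold enrichment of 5.16 and a downstream minus upstream extent of 215 bp. With 2500 bp the share was 67% and the extent 291 bp. Keeping H3K4me3 peaks with a −log10 q of at least 5 left 555 regions, with 63.6%, 7.08 and 322 bp. Counting only H3K4me1 peaks seen in another library gave 2719 regions, a fold enrichment of 5.74 and an extent of 293 bp. The extent was 264 bp with an H3K4me1 distance of 10 kb, 252 bp with regions of at least 2 libraries and 272 bp with an H3K4me1 −log10 q of at least 2. Leaving out each library in turn gave extents of 263.5 to 290.5 bp. Left-out libraries gave 1801 to 2154 members, CpG island-like shares of 60.5% to 62.7% and fold enrichments of 5.33 to 5.61. The held-out log2 ratios between the set and narrow regions with H3K4me1 kept their direction under the 10 alternatives run, at −1.43 to −0.92 within 5 kb, −0.49 to −0.22 at 5 to 50 kb and −0.20 to −0.09 for width, and 3 libraries cannot go below p = 0.25 in the exact test. For width, requiring regions of at least 2 libraries repeated the main calculation, so that alternative could not differ.

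The gene lists were recomputed under the same settings after seeing the data. Cilium transport had 5 of 22 genes in the set at 1500 bp, against 3.4% of all coding genes, and 6 of 22 against 2.54% with the H3K4me3 q limit. Crebbp left the set without H3K4me3 library 1, since its TSS lay under a peak of that library alone. The share on X was 22.1% against 8.52% on autosomes at 1500 bp, 21.6% against 11.3% with the H3K4me3 q limit and 50.4% against 31.8% when only H3K4me1 peaks seen in another library counted. No paired analysis was possible because no tested result compares the marks, and replicate numbers recur only between marks. Peak lists without reads cannot separate a missing mark from low depth.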
